A study of Mus musculus with 15 samples.

Results

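The comparison described here set 3 testes taken 6 wk after the last dose of JQ1 (Recovery, R) against 3 testes taken from vehicle-injected mice at that same time (Vehicle-Recovery, VC-R). Both groups were male DBA/2J mice, 16 wk old at collection, so no difference in age or in time since the last injection separates them. The R mice had received JQ1, a small molecule that binds the bromodomains of BRDT and of related proteins such as BRD2 and BRD3, by daily intraperitoneal injection of 50 mg/kg for 3 wk. The VC-R mice received the cyclodextrin carrier with DMSO alone. These 6 libraries were chosen by their sample titles out of 15 in the series, and each library held the dissociated cells of 1 mouse. The remaining libraries, used here only beside a result, came from mice killed right after 3 wk of JQ1 (T) or vehicle (VC-T) at 10 wk of age and from untreated mice of 15 wk (UC), with 3 in each group. JQ1 is not specific to the testis or to BRDT.

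Spermatogenesis runs from diploid spermatogonia through spermatocytes, which pair and recombine their chromosomes in meiosis, to haploid round spermatids and then to elongating spermatids, which replace histones by transition proteins and protamines as the nucleus is compacted. BRDT is a testis-specific member of the BET family that reads acetylated histones and is needed for transcription in meiotic and post-meiotic cells. Sertoli cells support the germ cells within the tubules, while Leydig cells, peritubular myoid cells and macrophages lie around the tubules.

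The measurement was single-cell RNA-seq with the 10x Genomics 3′ chemistry, in which each captured RNA is counted once by its unique molecular identifier (UMI). Total UMIs per library ran from 40582759 to 98724982 in R (median 48207277) and from 11010746 to 22785693 in VC-R (median 20082922), so that every R library held more UMIs in total than every VC-R library. After cells with under 500 genes, under 1000 UMIs or at least 30% mitochondrial UMIs and the cells with the top 5% of doublet scores were removed, 37981 cells remained of 72670 in the series: 6677, 7339 and 12797 in R 1, R 2 and R 3 and 4797, 3599 and 2772 in VC-R 1, VC-R 2 and VC-R 3. R 3 stood apart, since 94.7% of its barcodes passed the filters against 70.6% to 85.6% in the other 5 libraries, and the counts of genes for R against VC-R below are also given without it. The 15 pairs of these libraries shared between 3 and 31 cell barcodes, at most 0.441% of the smaller library.

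Cells were clustered over all 15 libraries and each cluster took the name of the stage whose markers it expressed most. Dmrt1, a regulator of spermatogonia, reached 248 CPM (its UMIs per 1e6 UMIs of the class) in the spermatogonia-like class against 1.2 in all other cells, and Rad51ap2, which acts in meiotic recombination, 210.3 against 0.640 in the early spermatocyte-like class. The Sertoli marker Clu reached 5037 CPM in a small class that it led, and Insl3, a Leydig hormone, 9047 CPM in the Leydig-like class. No cluster met the rule for endothelial or T cells. The myoid-like cluster was led by the stromal genes Dcn, Mgp and Gsn, with the myoid marker Acta2 among its 10 leading genes. A cluster holding late spermatid and Sertoli transcripts together stayed unnamed. Clusters of late spermatocyte to round spermatid, round spermatid or late spermatid type whose median cell had under 2100 UMIs were kept apart and are called low-UMI classes. The limit was not applied to other types. It was set after the data were seen: cluster 17, just inside it, had a median of 2067.5 UMIs, and cluster 3, the nearest of these types outside it, had 2292.

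The composition of the germ cells differed most in the low-UMI classes, which were larger in each R library than in each VC-R library. Together they were 30.2, 27.5 and 47.3% of the germ cells in R 1, R 2 and R 3 and 5.37, 5.02 and 2.43% in VC-R 1, VC-R 2 and VC-R 3, and 4.69, 3.39 and 6.13% in the untreated testes UC 1, UC 2 and UC 3. The groups did not overlap, and the means were 35 ± 10.7% (SD, n = 3) and 4.27 ± 1.61% (SD, n = 3), an exact two-sided permutation p = 0.1, the smallest that 3 libraries against 3 allow (adjusted p = 0.171 over the germ cell classes). With the UC and VC-R libraries pooled as 6 controls the exact permutation p was 0.0238 (adjusted p = 0.0476). Low-UMI round spermatid-like cells were 18.4, 15.7 and 20.4% of germ cells in R and 3.96, 3.28 and 1.42% in VC-R. Low-UMI cells of late spermatocyte to round spermatid type were 7.41, 8.08 and 19.8% in R and 1.22, 1.33 and 1.01% in VC-R, so that R 3 lay far above the other R libraries in this class. Low-UMI late spermatid-like cells were 4.42, 3.71 and 7.1% in R and 0.188, 0.414 and 0% in VC-R, where the last value is 0 of 2679 germ cells, which allows a share of up to 0.112%. Without R 3 the low-UMI classes together still held 28.9 ± 1.9% (SD, n = 2) in R. When cells with under 2000 UMIs were left out they held 15 ± 13.4% in R and 2.09 ± 0.238% in VC-R. These classes are set by UMIs, and each R library held more UMIs in total than each VC-R library. JQ1 history and depth therefore cannot be told apart in these shares.

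Outside the low-UMI classes every stage from spermatogonia to late spermatids was present in all 6 testes, and its share of germ cells overlapped between R and VC-R for 7 of 8 stages. Late spermatid-like cells, which carry the protamine transcripts and made up most of the germ cells, were 65, 61 and 62.2% in R and 60.0, 64 and 56.3% in VC-R, means of 62.7 ± 2.04% and 60.1 ± 3.87% (SD, n = 3; exact permutation p = 0.4). Counted among all germ cells, low-UMI classes included, the late spermatid share was 40.8 ± 6.93% in R and 57.5 ± 3.01% in VC-R without overlap, so its direction depends on whether the low-UMI cells are in the denominator. Round spermatid-like cells were 8.76, 10.4 and 9.55% in R and 7.23, 12.5 and 17.2% in VC-R, with the R values inside the range of VC-R. Pachytene spermatocyte-like cells, the meiotic stage with the largest transcriptome, were 9.12, 10.1 and 10.3% and 11.7, 7.59 and 9.49%, and spermatogonia-like cells 1.47, 1.79 and 1.82% and 0.966, 3.33 and 2.41%. The 3 R libraries lay close together in late spermatocyte-like cells, at 9.04, 9.67 and 9.37%, while VC-R ranged from 3.02% to 11.1%. The exception was the class between late spermatocyte and round spermatid, with 1.47, 2.25 and 1.25% in R and 4.88, 3.3 and 5.16% in VC-R, which did not overlap (exact permutation p = 0.1, adjusted p = 0.667). At a coarser resolution of 0.8 the shares of the class of this name were 6.52% and 6.53%, but it held other cells. It had 869 cells in R and 640 in VC-R there, against 219 and 438 here. The equal shares therefore do not retest the same class.

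Somatic cells were recovered in larger proportion from the R testes. The 5 somatic classes together were 8.9, 10.2 and 18.9% of kept cells in R 1, R 2 and R 3, 1.42, 4.72 and 1.88% in VC-R 1, VC-R 2 and VC-R 3 and 2.79, 2.14 and 3.62% in UC, without overlap between R and VC-R (means 12.7 ± 5.46% and 2.67 ± 1.79%, SD, n = 3, exact permutation p = 0.1, adjusted p = 0.16). Most of these cells belonged to a Sertoli-like class led by Aard and Rhox8, at 5.89, 6.32 and 16.1% in R and 0.688, 2.17 and 0.505% in VC-R. R 3 was far above the others in this class, and without it the mean in R was 6.1 ± 0.309% (SD, n = 2). The second Sertoli-like class, led by Clu, was 0.15, 0.245 and 0.102% in R and 0.0208, 0.639 and 1.05% in VC-R and did not separate the groups, VC-R 1 holding 1 such cell. Over all libraries the median cell had 1384 UMIs in the class led by Aard and 3366 in that led by Clu. The former lies under the limit for low-UMI germ cell classes, which was not applied here. R 3 held 58.4% of the class led by Aard. Clu reached 399 and 5037 CPM in these classes, in that order, Sox9 27.7 and 220, Wt1 32.0 and 336, and Rhox8 688 and 818. Whether the class led by Aard holds intact Sertoli cells was not tested. Leydig-like cells were 0.509, 0.695 and 0.93% in R and 0.313, 0.0834 and 0.18% in VC-R, and macrophage-like cells 0.899, 1.2 and 0.656% and 0.229, 0.278 and 0%, where 0 of 2772 cells in VC-R 3 allows up to 0.108%. Both classes were higher in all R libraries than in all VC-R libraries, whereas myoid-like cells, at 1.45, 1.73 and 1.19% and 0.167, 1.56 and 0.144%, overlapped. Shares of cells after dissociation do not tell a change in one class from an opposite change in another. JQ1 history and depth cannot be told apart in the somatic shares either.

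**Figure D1:**
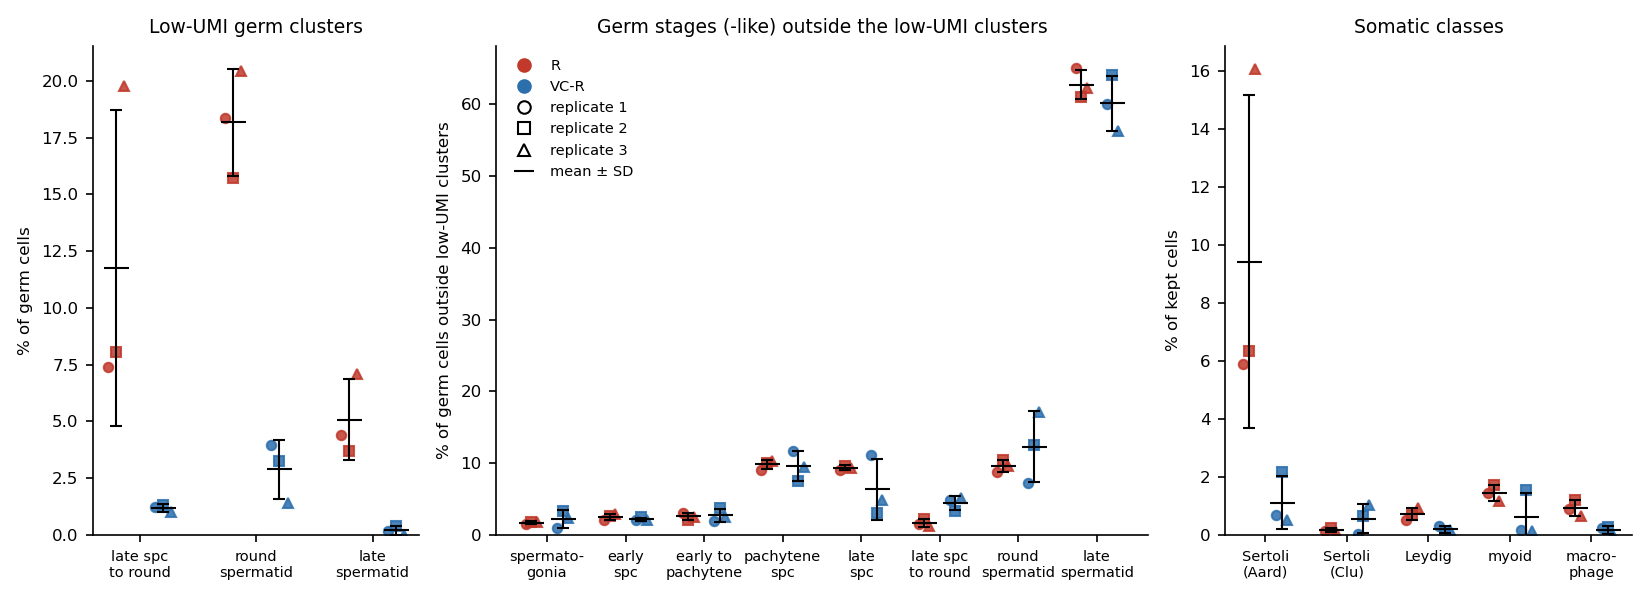
Share of each class per library, as percent of all germ cells for the 3 low-UMI classes (left), of germ cells outside them for the 8 other stages (middle) and of all kept cells for the somatic classes (right). Red marks R and blue VC-R, the symbol shape the replicate, and bars the mean ± SD of 3 libraries. The R libraries lie above the VC-R libraries in the low-UMI classes and in the Sertoli class led by Aard, and among the other germ stages for most classes within their range.

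Outside the low-UMI classes, cells of most stages carried more transcripts in R. Setting those classes apart by UMIs raises the medians of the spermatid cells left, and it took more cells from R. The low-UMI classes held 3942 round spermatid-like cells in R and 318 in VC-R, and 1155 and 22 late spermatid-like cells. The part of this sorting in the spermatid medians was not tested. In pachytene spermatocyte-like cells the median cell had 18973, 14986 and 32709 UMIs in R 1, R 2 and R 3 and 7617, 14498 and 7163 in VC-R 1, VC-R 2 and VC-R 3. In late spermatid-like cells the medians were 4387, 5039 and 7649 and 2377, 3297 and 2061. Both stages separated the groups completely, with means of 22223 ± 9298 against 9759 ± 4110.2 UMIs in the pachytene class and 5692 ± 1726 against 2578 ± 642 in late spermatids (SD, n = 3). Spermatogonia-like, early spermatocyte-like and early spermatocyte to pachytene spermatocyte-like cells also had higher medians in every R library than in any VC-R library, and all 5 of these stages gave an exact permutation p = 0.1 (adjusted p = 0.233 over the classes). Round spermatid-like cells had medians of 8336, 7578 and 12445 in R and 4079, 7816 and 3833 in VC-R, and VC-R 2 lay within the range of R. Late spermatocyte-like cells were the only stage in which the mean was lower in R, at 2989 ± 401 UMIs against 3494 ± 296 (exact permutation p = 0.2), and the groups overlapped. Total UMIs per library were larger throughout R, which also held more cells. The median over all kept cells, low-UMI classes included, overlapped between the groups. It was 3270, 3824 and 2690 UMIs in R 1, R 2 and R 3 and 2697, 3959 and 2564 in VC-R 1, VC-R 2 and VC-R 3. The part of depth in these differences was not tested, and JQ1 history and depth cannot be told apart here.

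The number of genes detected per cell moved with the UMIs, and the difference was small once UMIs per cell were equalised. Pachytene spermatocyte-like cells showed 5215 ± 899 genes per cell in R and 3485 ± 726 in VC-R, and late spermatid-like cells 1635 ± 280.0 and 940.2 ± 118 (SD, n = 3). Thinned to 1000 UMIs per cell, the expected numbers were 761 ± 3.44 and 755 ± 9.9 genes in the pachytene class (exact permutation p = 0.4), 769.5 ± 1.95 and 765 ± 4.46 in round spermatids (p = 0.3, exact) and 518 ± 5.5 and 497 ± 25.8 in late spermatids (p = 0.3, exact). Among these 8 stages only the early spermatocyte-like class kept its groups apart, at 811 ± 0.52 and 795 ± 10.3 genes (exact permutation p = 0.1, adjusted p = 0.4). Late spermatids thus held fewer distinct transcripts per 1000 UMIs than any earlier stage in both groups.

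**Figure D2:**
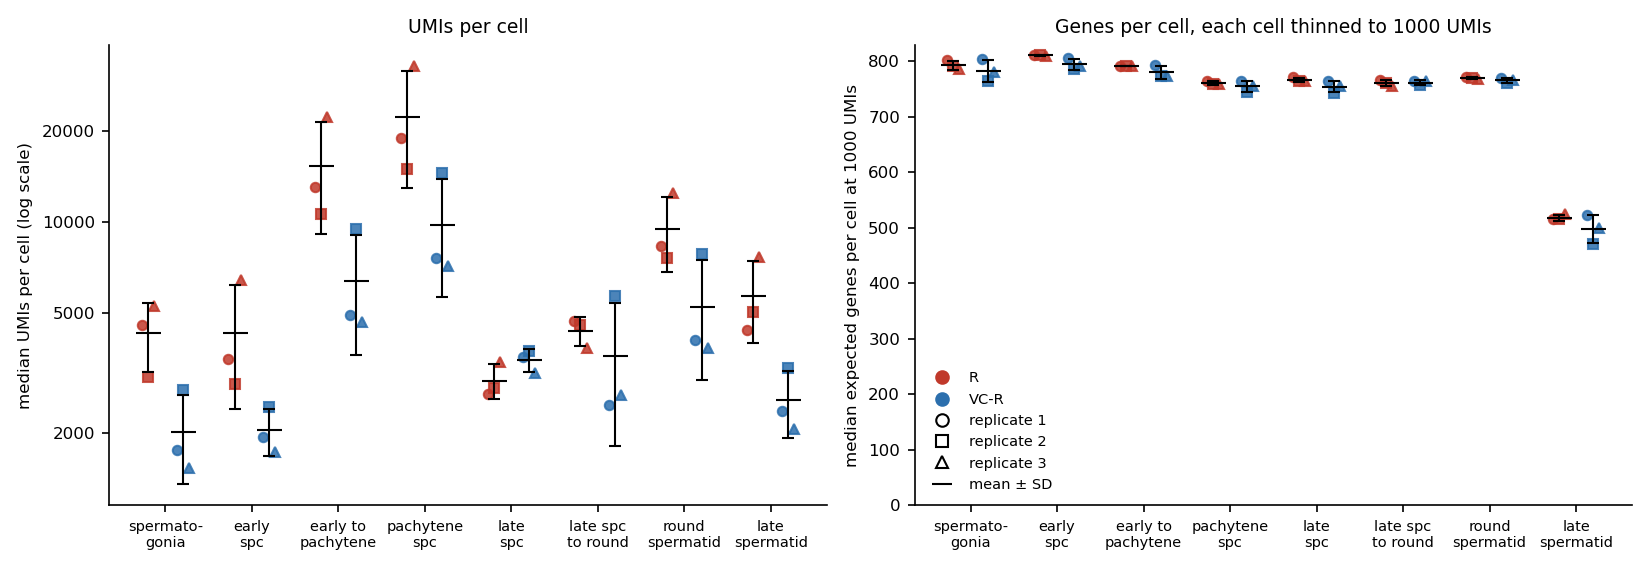
Median UMIs per cell (left, log scale) and median expected number of genes per cell after thinning to 1000 UMIs (right, from 0) for 8 germ cell stages, 1 point per library with mean ± SD. Cells of the low-UMI classes are left out. The R medians (red) lie above the VC-R medians (blue) in 5 stages on the left, and on the right the groups lie close together, with late spermatids lowest in both.

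Gene expression was compared on the UMIs of all cells of a class added up within each library, with the quasi-likelihood test of edgeR. A gene counts as called when its adjusted p (Benjamini-Hochberg, over all genes tested in the class) was under 0.05 and its log2 fold change was above 1 or below -1. Few genes separated R from VC-R in the stages outside the low-UMI classes. None was called in spermatogonia-like cells (0% of 6609 tested, 510 at an unadjusted p under 0.05), early spermatocyte-like cells (0% of 6065, 554), pachytene spermatocyte-like cells (0% of 11954, 380), the class between late spermatocyte and round spermatid (0% of 6137, 331) or late spermatid-like cells (0% of 12283, 1155), and DESeq2 called none in these 5 classes either. Leaving out VC-R 1 raised these counts to 17 in spermatogonia, 221 in early spermatocytes, 44 in the class between late spermatocyte and round spermatid and 50 in late spermatids, and leaving out R 1 gave 17 in spermatogonia. Without R 3 no gene was called in any of the 5 classes. In the pachytene class 0 genes were called whichever of the 6 libraries was left out.

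Round spermatid-like cells had higher transcripts of the mitochondrial genome in R. Of 12021 genes tested, 22 were called higher in R (0.183%) and 2 lower (0.0166%), and 4 of the 22 were subunits of respiratory complex I encoded in mitochondria. mt-Nd1 (chrM:2751-3707, GRCm38) had 70.6, 69.4 and 89.1 CPM in R 1, R 2 and R 3 and 46.6, 25.3 and 27.6 CPM in VC-R 1, VC-R 2 and VC-R 3 (log2 fold change 1.32 ± 0.15 SE, adjusted p = 4.11e-05, edgeR). mt-Nd2 had 44.2, 55.8 and 64.4 CPM in R and 27.9, 21.6 and 19.1 CPM in VC-R (log2 fold change 1.33 ± 0.15 SE, adjusted p = 4.11e-05). For both genes each R library lay above each VC-R library, with VC-R 1 the highest control. mt-Nd4l and mt-Nd3, lower in level, had log2 fold changes of 1.38 and 1.45 (adjusted p = 0.0124 and 0.0304). At any fold, 11 of the 12 tested mitochondrially encoded genes passed an adjusted p of 0.05, all higher in R, where 1.71% of all genes passed (0.616% as higher), and mt-Atp8 missed it. Their median log2 fold change was 0.88, against 0.02 over all genes tested. Summed, these genes took 1706, 1915 and 2175 CPM in R 1, R 2 and R 3, 1495, 879 and 736 CPM in VC-R 1, VC-R 2 and VC-R 3 and 799, 639 and 1237 CPM in UC. The groups did not overlap, but VC-R 1 lay nearer to R than to the other controls. The mitochondrial share moved the same way over all kept cells, at 0.841, 0.856 and 1.02% of UMIs in R 1, R 2 and R 3 and 0.612, 0.755 and 0.56% in VC-R 1, VC-R 2 and VC-R 3. The medians per cell were 0.157, 0.213 and 0.352% and 0.126, 0.0577 and 0.0425%, again without overlap. The clusters of this class were also filled differently. Cluster 15, with a median mitochondrial share of 0.294%, held 441 cells in R and 241 in VC-R. Cluster 4 (0.042%) held 402 and 456, and cluster 18 (0.016%) 438 and 447. The part of the library-wide share in the result was not tested, nor that of this cluster mix for these genes as a set. mt-Nd1 stayed past both thresholds in 15 of 15 alternative analyses and mt-Nd2 in 13 of 14. The 15 for mt-Nd1 include the run with equal numbers of cells per library and cluster. mt-Nd4l and mt-Atp8 overlap the neighbouring mt-Nd4 and mt-Atp6, so their reads may be shared.

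The other genes called higher in round spermatid-like cells were low in level. Parp16, an ADP-ribosyltransferase of the endoplasmic reticulum, had 12.3, 18.4 and 17.8 CPM in R 1, R 2 and R 3 and 6.21, 7.3 and 5.34 CPM in VC-R 1, VC-R 2 and VC-R 3 (log2 fold change 1.35 ± 0.23 SE, adjusted p = 0.00436). Jagn1, a membrane protein of the same organelle, had 11.5, 9.83 and 13 CPM in R and 5.59, 4.43 and 2.23 CPM in VC-R (log2 fold change 1.53 ± 0.27 SE, adjusted p = 0.00814). Neither gene overlapped between the groups. Psmd3, a subunit of the proteasome's regulatory particle, Gmnc, a regulator of multiciliated cell formation, Cenph, a centromere protein, and Mphosph8, a chromatin protein of the HUSH silencing complex, had log2 fold changes of 1.28, 1.19, 1.64 and 1.09 (adjusted p = 0.0129, 0.0205, 0.0265 and 0.0265). The genes called lower, named here after their values were seen, were the predicted models Gm21876 and BX571804.1.

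A further group called higher in round spermatid-like cells consisted of Sertoli cell transcripts. Etd had 4.48, 5.55 and 4.77 CPM in R 1, R 2 and R 3 and 1.86, 0.782 and 0 CPM in VC-R 1, VC-R 2 and VC-R 3 (log2 fold change 2.61 ± 0.50 SE, adjusted p = 0.0129), and was absent from VC-R 3. Aard had 11.2, 8.33 and 8.03 CPM in R and 5.59, 3.39 and 2.23 CPM in VC-R (log2 fold change 1.33 ± 0.30 SE, adjusted p = 0.027), and Tsx 4.48, 6.41 and 4.64 CPM in R and 2.48, 1.56 and 0.89 CPM in VC-R (log2 fold change 1.70 ± 0.40 SE, adjusted p = 0.0325). Defb19, a β-defensin of Sertoli cells, had 34.2, 31.6 and 28.2 CPM in R and 29.2, 11.7 and 8.9 CPM in VC-R (log2 fold change 1.06 ± 0.22 SE, adjusted p = 0.0238), with VC-R 1 inside the range of R. These 4 genes are among the leading genes of the Sertoli-like class led by Aard. They are also among those of the unnamed cluster of late spermatid and Sertoli transcripts. That cluster held 536, 574 and 695 cells in R 1, R 2 and R 3 and 463, 44 and 41 in VC-R 1, VC-R 2 and VC-R 3. All 8 Sertoli markers summed to 53.9, 54.1 and 53 CPM in the round spermatid-like cells of R, 50.1, 19.2 and 18.4 CPM in VC-R and 26.8, 28.8 and 47.5 CPM in UC, alongside the larger share of Sertoli-like cells in R given above, and their part in the result was not tested. Over the whole class, 24 genes were called (0.2%), and single libraries decided how many: 2 without R 3, 3 without R 2, 11 without R 1, 2 without VC-R 2, 2 without VC-R 3 and 151 without VC-R 1, all 24 among them. With the same number of cells drawn from each library within each cluster 10 genes were called, with the low-UMI round spermatids merged in 903, and DESeq2 called 1.

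**Figure D3:**
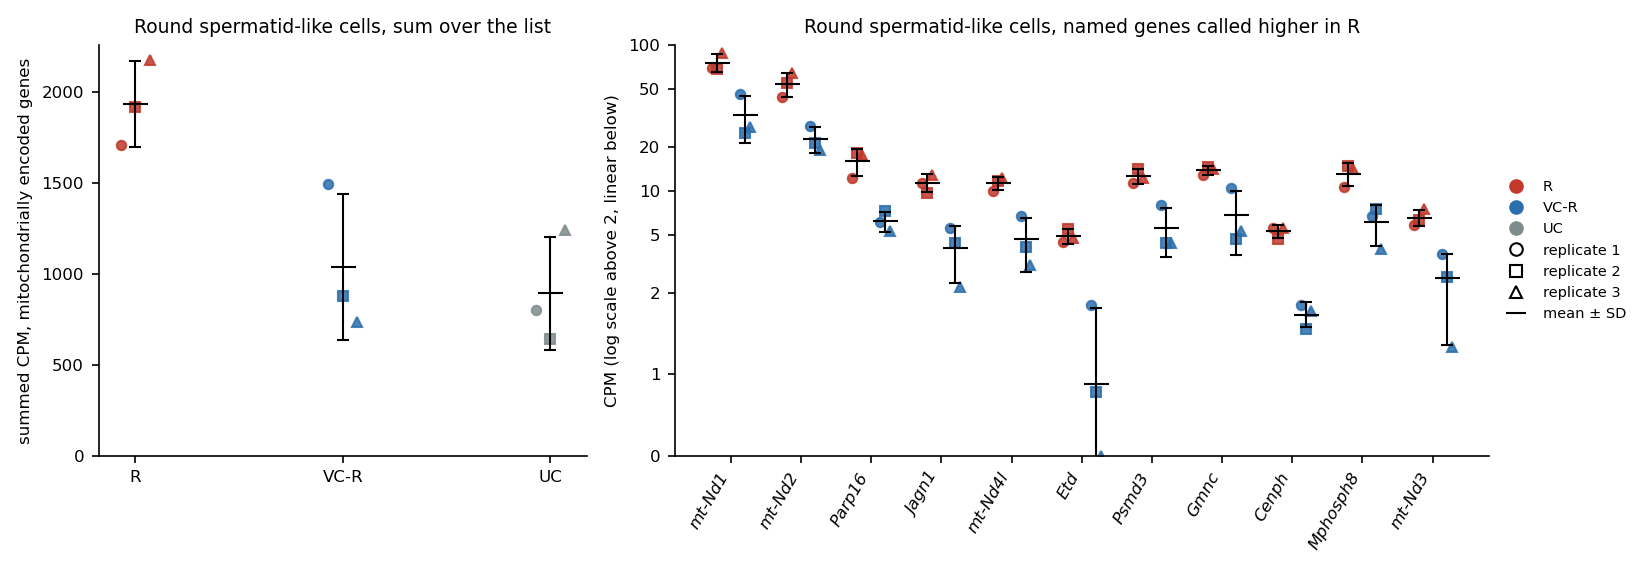
Round spermatid-like cells: summed CPM of the mitochondrially encoded genes in R, VC-R and UC libraries (left, linear from 0) and CPM of 11 named genes called higher in R (right, log scale above 2 CPM and linear below), with 1 point per library and mean ± SD of 3. The summed level was 1706 to 2175 CPM in R and 736 to 1495 CPM in VC-R, and for each gene on the right the 3 R points lie above the 3 VC-R points.

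The class between early and pachytene spermatocytes, a single cluster of 346 cells in R and 266 in VC-R, had more transcripts of late spermatid genes in R. All 43 genes called were higher in R (0.485% of 8872 tested), and 36 of them did not overlap between the groups. Hils1 (chr11:94967593-94968456), a linker histone of spermatids, had 112, 92.4 and 96.6 CPM in R 1, R 2 and R 3 and 69.7, 37.7 and 18.4 CPM in VC-R 1, VC-R 2 and VC-R 3 (log2 fold change 1.25 ± 0.18 SE, adjusted p = 9.31e-06). Odf1, a protein of the outer dense fibers of the sperm tail, had 35.2, 39.5 and 46.8 CPM in R and 22.5, 10.8 and 15.3 CPM in VC-R (log2 fold change 1.53 ± 0.28 SE, adjusted p = 0.000279). The spermatid kinases Tssk1 and Tssk3 had log2 fold changes of 1.17 and 1.31, Txndc2, a thioredoxin of the sperm tail, 1.53, and Lelp1, Ms4a5, Scp2d1, Stard10 and Ccdc54 between 1.09 and 1.51. At any fold, where 1.1% of all genes passed an adjusted p of 0.05 (0.902% as higher), all 5 transition protein and protamine genes did (median log2 fold change 0.68), as did all 5 late spermatid markers (median 0.79) and 8 of 28 genes of the outer dense fibers, fibrous sheath and sperm glycolysis, every one higher in R, while the median over all genes was -0.00.

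These late spermatid transcripts were present in the earlier cells of every library. Tnp1, a transition protein, had 829.8, 921 and 795 CPM in R 1, R 2 and R 3 and 774, 337 and 426 CPM in VC-R 1, VC-R 2 and VC-R 3 in the early-to-pachytene class, far below its level of 24147 to 33704 CPM in late spermatid-like cells. The 5 late spermatid markers summed to 601, 776 and 675 CPM in R, 600.04, 237 and 518 CPM in VC-R and 419.8, 319.8 and 573 CPM in UC, VC-R 1 lying just below the lowest R library, and the 8 Sertoli markers to 79.8, 84.4 and 102 CPM, 49.4, 42.3 and 14.6 CPM and 43.3, 33.1 and 45.3 CPM in those groups. The part of these transcripts in the result was not tested. DESeq2 called 0 genes in this class. Without VC-R 2 the class had 3 genes called and without VC-R 1 it had 210, and the counts were 47, 18, 22 and 21 without R 1, R 2, R 3 and VC-R 3. Hils1 passed both thresholds in all 13 of its alternative analyses.

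Late spermatocyte-like cells, which are completing the meiotic divisions, had 10 genes called, all higher in R (0.0938% of 10657 tested). mt-Atp8, a mitochondrially encoded subunit of ATP synthase, had 42.6, 43.4 and 41.5 CPM in R 1, R 2 and R 3 and 21, 12.7 and 14.9 CPM in VC-R 1, VC-R 2 and VC-R 3 (log2 fold change 1.22 ± 0.21 SE, adjusted p = 0.0309). Tfam, the mitochondrial transcription factor A, had 38, 44.1 and 37.2 CPM in R and 24.1, 10.8 and 1.86 CPM in VC-R (log2 fold change 1.2 ± 0.28 SE, adjusted p = 0.0474). Both genes lay higher in each R library than in each VC-R library, and Tfam was near the floor in VC-R 3. Tfam was also among the 10 leading genes of cluster 0, a late spermatid-like cluster, beside Tnp1, Tnp2 and Prm1. H1fnt, another linker histone of spermatids, Scp2d1, Tmsb15a, an actin-binding thymosin, and Prdx4, a peroxiredoxin, had log2 fold changes of 1.06, 1.09, 1.02 and 1.23, and the other 4 genes were predicted models. Of the 5 transition protein and protamine genes 4 passed an adjusted p of 0.05 at any fold, where 0.61% of all genes did (0.525% as higher), with a median log2 fold change of 0.89. The part of late spermatid transcripts in the genes called here was not tested. The clusters filling this class differed between the groups, cluster 22 holding 705 cells in R and 172 in VC-R and cluster 20 129 and 171. Without R 2, without R 3 or without VC-R 3 no gene was called, without VC-R 2 there were 6, without R 1 16 and without VC-R 1 93, and neither DESeq2 nor edgeR with doublets kept called any.

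**Figure D4:**
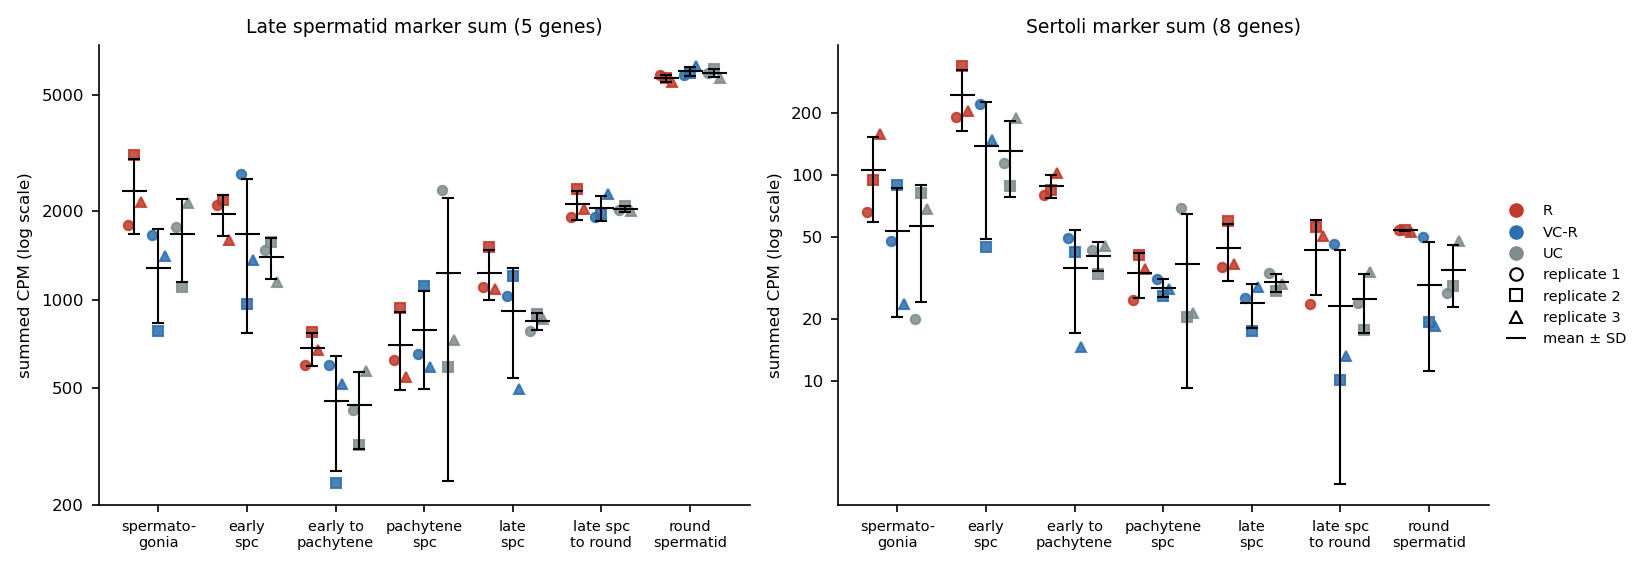
Summed CPM of the 5 late spermatid markers (left) and the 8 Sertoli markers (right) in the cells of 7 earlier germ cell stages, on log scales, with 1 point per library for R, VC-R and UC and mean ± SD of 3. In the early-to-pachytene class the R libraries have 601 to 776 CPM of late spermatid markers against 237 to 600 CPM in VC-R, and the ranges of R and VC-R overlap in most other classes.

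The low-UMI round spermatid-like cells differed between the groups in far more genes. In these 3942 cells of R and 318 of VC-R, 531 genes were called higher in R (5.23% of 10148 tested) and 34 lower (0.335%), together 5.57%. Mitochondrially encoded genes rose, 10 of the 12 tested being called, with a median log2 fold change of 1.14 against 0.05 over all genes. mt-Nd1 had 229, 259 and 233 CPM in R 1, R 2 and R 3 and 116, 104 and 48 CPM in VC-R 1, VC-R 2 and VC-R 3 (log2 fold change 1.29 ± 0.18 SE, adjusted p = 6.86e-05), and mt-Cytb, the cytochrome b of complex III, 339, 330.3 and 398 CPM in R and 175, 188 and 85.3 CPM in VC-R (log2 fold change 1.14 ± 0.17 SE, adjusted p = 0.000121). The summed level of these genes was 6027, 5585 and 7026 CPM in R, 3217, 3052 and 1001 CPM in VC-R and 1274, 2367 and 3942 CPM in UC, with VC-R 3 the lowest. Kcnq1ot1, the long noncoding RNA antisense to the imprinted gene Kcnq1, had 207, 143 and 198 CPM in R and 90.3, 74.8 and 42.6 CPM in VC-R (log2 fold change 1.28 ± 0.20 SE, adjusted p = 0.000201), and its reads cannot be told from those of its antisense partner where strand was not used in counting. Schip1, a leading gene of cluster 11 of this class, had a log2 fold change of 1.53 (edgeR adjusted p = 1.23e-05). It was past both thresholds in 13 of 13 alternative analyses. Other called genes that rose were Sycp3, an axial element of meiotic chromosomes, Dmc1, the meiotic recombinase, and Hsf2bp, which acts with BRCA2 in meiotic recombination, with log2 fold changes of 1.04, 1.09 and 1.10, past both thresholds in 9, 10 and 10 of 13 alternative analyses. These 3 are named as members of preset lists, out of the 531 genes called higher (5.23% of those tested). The lists of synaptonemal complex and axis genes and of meiotic recombination genes hold 14 and 26 genes. These 3 therefore do not show a rise of meiotic genes as a set. Hsf2bp turned to -0.185 with UC as control.

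Ribosomal protein genes and genes of the sperm tail and acrosome more often lay lower in the low-UMI round spermatids of R, and 3 genes of transition proteins and protamines higher. Cytoplasmic ribosomal protein genes passed an adjusted p of 0.05 in 33 of 79 cases as lower and in 2 as higher (median -0.38 on the log2 scale). Over all genes 9.5% passed as lower and 10.2% as higher, together 19.7%. The counts as lower were 15 of 79 nuclear genes of oxidative phosphorylation (median -0.28, 1 higher), 14 of 30 genes of the outer dense fibers, fibrous sheath and glycolysis (median -0.37, 0 higher) and 15 of 37 acrosome and sperm-egg fusion genes (median -0.31, 1 higher), none of which was called lower at the fold threshold. Of the 5 transition protein and protamine genes 3 passed as higher and 0 as lower (median 0.60 on that scale). Tnp2 had 6868, 6737 and 6366 CPM in R and 6225, 3193 and 2222 CPM in VC-R (log2 fold change 0.77 ± 0.20 SE, adjusted p = 0.00748), without overlap. Prm1 and Tnp1 had log2 fold changes of 0.86 and 0.60 (adjusted p = 0.0103 and 0.023), where VC-R 1 lay within the range of R. Brdt passed as well, at 66.8, 89.1 and 70.2 CPM in R 1, R 2 and R 3 and 108, 109 and 139 CPM in VC-R 1, VC-R 2 and VC-R 3 (log2 fold change -0.60 ± 0.19 SE, adjusted p = 0.02). Among the called genes Tcta had 4.73, 5.22 and 3.86 CPM in R and 17.7, 19.2 and 16 CPM in VC-R (log2 fold change -2.03 ± 0.42 SE, adjusted p = 0.00171), and Map10, a microtubule-associated protein, 7.58, 10.1 and 11.7 CPM in R and 25.5, 28.8 and 26.6 CPM in VC-R (log2 fold change -1.38 ± 0.34 SE, adjusted p = 0.00549). For both genes no R library reached the level of the lowest VC-R library.

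The 3 clusters of this class were filled differently, cluster 11 holding 1959 cells in R and 109 in VC-R, cluster 17 1024 and 147, and cluster 23 959 and 62. With equal numbers of cells per library and cluster no gene was called of 3701 tested (edgeR, 352 at an unadjusted p under 0.05). Only 30 of the 565 called genes were among those tested there, 29 of them in the same direction, and the rest fell below the filter on low counts. DESeq2 on all cells called 357, and leaving out 1 library gave from 58 genes (VC-R 2) to 1166 (VC-R 1), with 373 without R 3, 286 without R 1 and 331 without VC-R 3.

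In the other low-UMI class that could be tested, most genes called were haemoglobin genes. The low-UMI cells of late spermatocyte to round spermatid type numbered 411, 486 and 1915 in R 1, R 2 and R 3 and 52, 45 and 27 in VC-R 1, VC-R 2 and VC-R 3. Here 4 genes were called, all higher in R (0.0686% of 5831 tested), and 3 of them were globin genes of red blood cells. Hbb-bs, an adult β-globin (chr7:103826534-103828096), had 6794, 6901 and 4894 CPM in R 1, R 2 and R 3 and 0, 0 and 0 CPM in VC-R 1, VC-R 2 and VC-R 3. Hba-a1, an α-globin, had 4289, 3911 and 2919 CPM in R and 0, 0 and 0 CPM in VC-R, and Hbb-bt 1121, 896 and 530.4 CPM in R and 0, 0 and 0 CPM in VC-R. All 3 genes were thus found in every R library and not detected in the far fewer cells of the VC-R libraries (edgeR adjusted p = 4.32e-08, 6.12e-08 and 3.44e-05). Reads of these near-identical globin copies may be split among them. Cells with at least 10% of their UMIs from 4 globin genes, a rule set after the values were seen, numbered 9, 11 and 27 in this class in R and 0 in each VC-R library. That is 47 of 2812 cells in R (1.67%) and 0 of 124 in VC-R, which allows a share of up to 2.42%. A difference in the share of such cells was not detectable at this depth. Over whole libraries such cells numbered 10, 15 and 32 in R 1, R 2 and R 3 and 2, 1 and 0 in VC-R 1, VC-R 2 and VC-R 3, and those of VC-R were late spermatid-like. In the whole libraries globins took 249.6, 248 and 346 CPM in R, 81.1, 12.7 and 0.71 CPM in VC-R and 32.2, 0.607 and 73 CPM in UC. Red blood cell transcripts thus stood beside germ cell markers in the class as a whole. Whether both lay in the same cells was not tested. The remaining gene, Tmigd3, had 139, 134 and 161 CPM in R and 0, 12.8 and 31 CPM in VC-R (edgeR adjusted p = 0.0212), resting on 0, 1 and 2 UMIs in the VC-R libraries. The count of genes called was 647 without VC-R 2 and 3 without R 3, and DESeq2 called 50.

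Brdt, Brd2 and Brd3 did not pass the test outside the low-UMI classes. Brdt (chr5:107331159-107387058), the germ cell target of JQ1, had 214, 195 and 200.04 CPM in R 1, R 2 and R 3 and 199.8, 185 and 208 CPM in VC-R 1, VC-R 2 and VC-R 3 in pachytene spermatocyte-like cells (log2 fold change 0.04 ± 0.08 SE, edgeR adjusted p = 0.979). Its values in round spermatid-like cells were 81.5, 93.6 and 91.8 CPM in R and 89.4, 87.6 and 90.4 CPM in VC-R (log2 fold change 0.01 ± 0.09 SE, adjusted p = 0.979). Brd2 and Brd3 had log2 fold changes of 0.03 and 0.14 in pachytene cells, with adjusted p of 0.985 and 0.96. Over the 12 classes in which Brdt was tested its log2 fold change ran from -0.60 to 0.45.

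The genes that package the sperm genome were not called in spermatids of the R testes. In round spermatid-like cells Tnp1 had 5751, 5754 and 5639 CPM in R 1, R 2 and R 3 and 5465, 5976 and 5538 CPM in VC-R 1, VC-R 2 and VC-R 3, and Prm1, a protamine, 11593, 11873 and 11499 CPM in R and 10589, 11234 and 10263 CPM in VC-R. The ranges overlapped for Tnp1, while each R library exceeded each VC-R library for Prm1 by a small margin. Tnp1 had a log2 fold change of 0.01 ± 0.06 SE, Tnp2 of -0.04 ± 0.06, Prm1 of 0.12 ± 0.06 and Prm2 of -0.12 ± 0.06 (adjusted p = 0.93, 0.745, 0.23 and 0.264). In late spermatid-like cells Tnp2 had 39435, 40169.6 and 36141 CPM in R 1, R 2 and R 3 and 42071, 46489 and 47205 CPM in VC-R 1, VC-R 2 and VC-R 3, which did not overlap, with a log2 fold change of -0.23 ± 0.15 SE (adjusted p = 0.623). Tnp1, Prm1 and Prm2 there had -0.21 ± 0.15, -0.18 ± 0.17 and -0.24 ± 0.18 SE. Gpx4, a selenoprotein of the sperm midpiece, Herpud1, a component of endoplasmic reticulum-associated degradation, and Smarca5, a chromatin remodeler, had -0.07 ± 0.06, 0.00 ± 0.10 and 0.35 ± 0.11 SE in round spermatids. None of these 3 passed an adjusted p of 0.05 there, Smarca5 lying nearest with 0.0812 and higher values in each R library.

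Gene lists were also described in the 3 stages at the start, the middle and the end of spermatogenesis, where no gene passed an adjusted p of 0.05 at any fold (0% in each, edgeR), so the following medians are descriptions of log2 fold changes. In late spermatid-like cells the acrosome and sperm-egg fusion genes had 19 of 38 genes above 0 and a median of 0.01, and the outer dense fiber, fibrous sheath and glycolysis genes 13 of 30 genes above 0 and a median of -0.01. The axoneme and CatSper genes, which build the tail's motor and its calcium channel, had 28 of 36 genes above 0 and a median of 0.22, against -0.00 over all genes tested there. In pachytene spermatocyte-like cells the synaptonemal complex and axis genes, which hold paired chromosomes together, had 3 of 12 genes above 0 and a median of -0.05, and the meiotic recombination genes 5 of 20 genes above 0 and a median of -0.14. In spermatogonia-like cells the genes of self-renewal and differentiation had 3 of 14 genes above 0 and a median of -0.21. Cytoplasmic ribosomal protein genes lay below 0 in most cases in all 3 stages, with medians of -0.20 in spermatogonia, -0.15 in pachytene spermatocytes and -0.14 in late spermatids. The 5 late spermatid markers summed to 1798, 3102 and 2154 CPM in the spermatogonia-like cells of R 1, R 2 and R 3, 1656, 781 and 1415 CPM in those of VC-R 1, VC-R 2 and VC-R 3 and 1777, 1104 and 2138 CPM in UC, without overlap between R and VC-R.

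Among somatic cells, the Sertoli-like class led by Clu had more germ cell transcripts in R. VC-R 1 held 1 such cell and was left out of the fit, so that 41 cells of 3 R libraries were set against 52 cells of 2 VC-R libraries. In this small class 32 genes were called higher (0.982% of 3259 tested) and 3 lower (0.0921%). Smcp, a protein of the sperm mitochondrial capsule, had 2114, 2358 and 2026 CPM in R 1, R 2 and R 3 and 288 and 753 CPM in VC-R 2 and VC-R 3 (log2 fold change 2.10 ± 0.35 SE, adjusted p = 0.0302). Crisp2, a protein of the acrosome and sperm tail, had 993, 1289 and 1108 CPM in R 1, R 2 and R 3 and 288 and 462 CPM in VC-R 2 and VC-R 3 (log2 fold change 1.62 ± 0.31 SE, adjusted p = 0.035). Oaz3, the testis ornithine decarboxylase antizyme, Ldhc, the sperm lactate dehydrogenase, Hils1 and Tsks, a substrate of the spermatid kinases, had log2 fold changes from 1.60 to 3.12. The 3 genes called lower were Arf5, a small GTPase of the Golgi, with 211, 241 and 327 CPM in R 1, R 2 and R 3 and 784 and 804 CPM in VC-R 2 and VC-R 3 (log2 fold change -1.58 ± 0.31 SE, adjusted p = 0.035), Lgals1, a galectin, and Marcksl1, a membrane-bound actin regulator. The 5 late spermatid markers summed to 3602, 3234 and 2856 CPM in R and 565 and 1447 CPM in VC-R, and the 8 Sertoli markers to 16527, 11261 and 15167 CPM and 19654 and 18973 CPM. Their part in the result was not tested. Fshr, the Sertoli receptor for follicle-stimulating hormone, had a log2 fold change of -0.68 ± 0.37 SE (adjusted p = 0.35). The count of called genes was 117 without R 3, 78 without R 1, 11 without R 2, 71 without VC-R 3 and 9 without VC-R 2, and with doublets kept it was 0.

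The larger Sertoli-like class led by Aard, with 2911 cells in R and 125 in VC-R, gave no called gene of 5826 tested (0%; edgeR, 401 at an unadjusted p under 0.05), and DESeq2 called 6. Without VC-R 1 the count was 67, without VC-R 2 it was 29 and without R 3 it was 0. Macrophage-like cells gave none of 3124 in a fit without VC-R 3, which held no such cell (0%; edgeR, 198 at an unadjusted p under 0.05, DESeq2 1), 3 without VC-R 2 and 0 without R 3. Leydig-like, myoid-like and low-UMI late spermatid-like cells were too few in VC-R to be tested, since fewer than 2 of its libraries held 10 cells.

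The last comparison asked whether the effect of JQ1 history after 6 wk differed from the effect seen right after dosing. The contrast of R against VC-R was set against that of T against VC-T in a joint edgeR fit for each class. These contrasts share no library. VC-T 1 was left out of the fit, following the methods of the paper. In round spermatid-like cells 6 genes were called in R against VC-R (0.0459% of 13082) and 3411 in T against VC-T (26.1%), 1187 of them higher and 2224 lower in T. The difference of the contrasts was itself called for 2182 genes (16.7%), and 2066 of the 3411 genes called in T were among them. Over the genes called in T, which were picked by their T values, the median absolute log2 fold change was 1.62 in T and 0.26 in R.

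Protamine and transition protein genes showed a large gap between the contrasts, as did Herpud1. Prm1 had a log2 fold change of -5.89 in T and 0.11 in R (difference 6.00, adjusted p = 1.19e-10). For Prm2 the values were -5.64 in T and -0.13 in R, for Tnp2 -4.86 in T and -0.05 in R and for Tnp1 -3.70 in T and 0.00 in R. It was also wide for Herpud1, at -4.86 in T and -0.00 in R. Smarca5 had 1.48 in T and 0.34 in R (difference -1.14, adjusted p = 5.51e-05), so that it was higher in T, and Brd2 0.84 in T and 0.15 in R (adjusted p = 0.00275). Brdt, at 0.34 in T and -0.01 in R, did not differ past the threshold (adjusted p = 0.0629). Of 45 BRDT-bound spermatid genes, a list the study chose on these samples and so no independent evidence, 41 were called lower and 2 higher in T, 0 were called in R, and the difference was called for 35. The mitochondrially encoded genes went the same way in both contrasts: 11 of 12 were called higher in T and 3 in R, with median log2 fold changes of 1.33 and 0.86, and the difference was called for 1. The Sertoli transcripts Etd, Defb19 and Aard went opposite ways, at -1.67, -2.10 and -1.97 in T against 2.60, 1.04 and 1.32 in R. The clusters of this class were filled differently in the treated mice, cluster 18 holding 139 cells in T and 348 in VC-T against 438 in R and 447 in VC-R. The drop of Prm1 in T was not particular to round spermatids. It was -5.22 in spermatogonia-like, -5.72 in early spermatocyte-like and -5.12 in pachytene spermatocyte-like cells, where Prm2, Tnp1 and Tnp2 also fell. Herpud1 had -0.72, -2.70 and -0.44 in those classes. The part of transcripts from late spermatids in these values was not tested.

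Earlier stages showed the same order with smaller numbers. In pachytene spermatocyte-like cells 0 genes were called in R and 680 in T (5.58% of 12182), with 224 for the difference (1.84%). Spermatogonia-like cells gave 0, 614 (7.38% of 8316) and 160 (1.92%). Late spermatids could not be compared, because T held too few of them. VC-T 1 decides the difference: with it in the fit the count was 0 in round spermatids, 3 in pachytene spermatocytes and 0 in spermatogonia. The counts for T against VC-T also fell with it, to 1795, 97 and 0 in these classes, and R against VC-R then had 0 in each. The joint fit was not run without R 3.

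**Figure D5:**
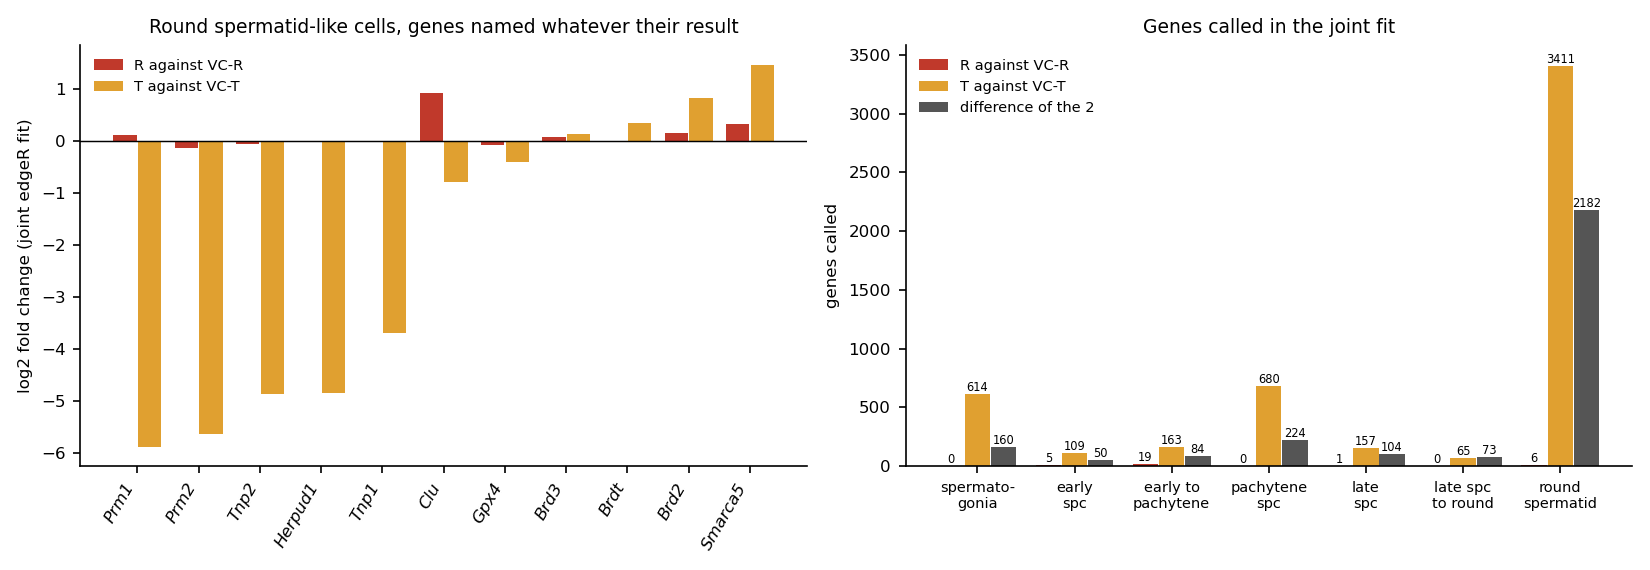
Left, log2 fold changes of 11 genes in round spermatid-like cells for R against VC-R (red) and T against VC-T (yellow), from the joint edgeR fit without VC-T 1. Right, the number of genes called in each contrast and in their difference (grey) for 7 classes, with bars from 0. Prm1, Prm2, Tnp1, Tnp2 and Herpud1 have log2 fold changes of -3.70 or below in T and near 0 in R, and round spermatids have 3411 genes called in T, 6 in R and 2182 in the difference.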

How the data were processed

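The files hold, for each of 15 libraries, counts of UMIs per gene and cell barcode, which the authors deposited unnormalized after mapping with Cell Ranger to mm10 (version 3.0.0 in the submitters' notes and 7.0.0 in the matrix header). Whether intronic reads were counted, and whether strand was used, is not given in the sources used here. The authors' later correction for free RNA and their cell labels are not used here. A barcode counted as a cell when it held 500 or more genes and 1000 or more UMIs, of which mitochondrial genes took less than 30%. Likely doublets, taken as the top 5% of Scrublet scores within each library, were then dropped. All libraries were clustered together (scanpy 1.11.5, 2000 variable genes, 30 components, Leiden resolution 1.2), and clusters were named by fixed markers. Classes whose marker scores lay close to another's keep both names. Counts were summed per library and class, with at least 10 cells. R was compared with VC-R by edgeR 4.0.16 (filterByExpr, TMM, quasi-likelihood test), and by DESeq2 1.42.0 as an alternative. CPM of single genes are TMM-normalized, sums over markers are plain. For class shares and per-cell medians the test was an exact permutation over libraries (two-sided), where 3 against 3 reach 0.1 at best. On simulated counts with 200 changed genes at a log2 fold of 2, 99.5% were recovered in round spermatids (12021 genes), 99.5% in late spermatids (12283) and 98.5% in spermatogonia (6609). The changed genes were drawn only from those above a set mean count, and the spread followed the fitted trend of dispersion. These rates therefore do not cover genes of low counts or folds near the threshold of 1. Each library is 1 mouse. Intervals and limits cover counting error only. Named genes were, per class and direction, the 10 called non-overlapping genes of smallest adjusted p outside predicted models, with members of the preset lists. Members and gene lists were chosen with earlier results of these data known. One gene of these lists is not reported here. Alternatives covered the normalization, the filter, doublets, deeper cells, matched cells, clustering, controls and leaving out each library.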

Additional observations from a re-analysis of the deposited data

Results flagged for a closer look

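The following results stood out because the effect of R against VC-R was tested directly against the effect of T against VC-T and genes passed that test. The difference was called for 2182 genes in round spermatid-like cells (16.7% of 13082 tested, 6 called in R against VC-R and 3411 in T against VC-T), and for 224 genes in pachytene spermatocyte-like cells (1.84% of 12182 tested, 0 called in R against VC-R and 680 in T against VC-T). It was called for 160 genes in spermatogonia-like cells (1.92% of 8316 tested, 0 called in R against VC-R and 614 in T against VC-T) and for 104 genes in late spermatocyte-like cells (0.906% of 11477 tested, 1 called in R against VC-R and 157 in T against VC-T). Among the other germ cell stages it was called for 84 genes in early-to-pachytene-like cells (0.869% of 9666 tested, 19 called in R against VC-R and 163 in T against VC-T), 50 genes in early spermatocyte-like cells (0.721% of 6935 tested, 5 called in R against VC-R and 109 in T against VC-T) and 73 genes in late spermatocyte-to-round-like cells (1.01% of 7194 tested, 0 called in R against VC-R and 65 in T against VC-T). In the low-UMI classes it was called for 1802 genes in low-UMI round spermatid-like cells (21% of 8571 tested, 365 called in R against VC-R and 660 in T against VC-T) and 25 genes in low-UMI late spermatocyte-to-round-like cells (0.791% of 3160 tested, 4 called in R against VC-R and 17 in T against VC-T), and it was called for 1 gene in Clu-led Sertoli-like cells (0.0256% of 3902 tested, 189 called in R against VC-R and 0 in T against VC-T). VC-T 1 was outside these fits, and its inclusion lowered the count in 9 of the 10 classes.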

How the results depend on the processing

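The counts of called genes were the values that moved most, while the direction of the somatic shares and of the low-UMI shares held under every alternative run for them. Genes called were 6 (Aard-led Sertoli), 0 (early-to-pachytene), 0 (late spermatocyte), 50 (low-UMI late spermatocyte-to-round), 357 (low-UMI round spermatid), 1 (macrophage) and 1 (round spermatid) with DESeq2, 59 (Clu-led Sertoli) with DESeq2-type size factors in edgeR, 8 (Aard-led Sertoli), 316 (Clu-led Sertoli), 52 (early spermatocyte), 9 (late spermatid), 39 (late spermatocyte), 2 (late spermatocyte-to-round), 62 (low-UMI late spermatocyte-to-round), 12 (macrophage), 2 (pachytene spermatocyte), 58 (round spermatid), 73 (spermatogonia) and 2 (unnamed cluster) with no filter on low counts, 1 (Clu-led Sertoli), 97 (early spermatocyte), 70 (late spermatid), 147 (late spermatocyte), 10 (late spermatocyte-to-round), 80 (round spermatid), 25 (spermatogonia) and 36 (unnamed cluster) with UC in place of VC-R, 97 (Clu-led Sertoli) and 0 (late spermatocyte) in cells of at least 2000 UMIs, 0 (Clu-led Sertoli), 24 (early-to-pachytene), 0 (late spermatocyte), 2 (macrophage) and 1 (unnamed cluster) with doublets kept and 7 (early-to-pachytene), 6 (late spermatid), 2 (late spermatocyte), 0 (low-UMI late spermatocyte-to-round), 0 (low-UMI round spermatid) and 10 (round spermatid) with cells matched per cluster, where the filter on low counts left only 0 of 4 (low-UMI late spermatocyte-to-round) and 30 of 565 (low-UMI round spermatid) of the called genes to be tested, so that these zeros say little. With the low-UMI clusters merged into their stages, an alternative chosen after seeing the data, they were 1296 (late spermatocyte-to-round) and 903 (round spermatid). With UC in place of VC-R the genes themselves changed, though nearly all kept their direction. Called again were 8 of 24 (round spermatid), 12 of 43 (early-to-pachytene) and 6 of 10 (late spermatocyte). In the other classes it was 173 of 565 (low-UMI round spermatid), 3 of 4 (low-UMI late spermatocyte-to-round) and 1 of 35 (Clu-led Sertoli). The replicate numbers do not pair the samples: correlations of same-numbered deviations ran from -0.246 to 0.407. With the number as a replicate block the genes called were 1 (Aard-led Sertoli), 185 (Clu-led Sertoli), 21 (early-to-pachytene), 1 (late spermatid), 16 (late spermatocyte), 15 (low-UMI late spermatocyte-to-round), 1 (macrophage), 2 (pachytene spermatocyte) and 3 (round spermatid), and for the difference from T 4 (Clu-led Sertoli), 111 (early spermatocyte) and 91 (pachytene spermatocyte). With VC-T 1 in the fit that difference was called for 21 (early spermatocyte), 28 (early-to-pachytene), 7 (late spermatocyte), 7 (late spermatocyte-to-round), 12 (low-UMI late spermatocyte-to-round), 570 (low-UMI round spermatid), 3 (pachytene spermatocyte), 0 (round spermatid) and 0 (spermatogonia).

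With UC and VC-R pooled as 6 controls, exact permutation p fell under 0.05 for these differences in percent of germ cells: -17.8 (late spermatid), -2.72 (late spermatocyte-to-round), 4.85 (low-UMI late spermatid), 10.4 (low-UMI late spermatocyte-to-round), 15.2 (low-UMI round spermatid), 30.5 (low-UMI together) and -5.69 (round spermatid). Outside the low-UMI clusters the late spermatocyte-to-round difference also passed and the early-to-pachytene difference turned direction, at 0.363 (early-to-pachytene) and -2.35 (late spermatocyte-to-round). In percent of all cells they were 0.457 (Leydig), 7.96 (Sertoli together), 8.37 (Aard-led Sertoli), 0.711 (macrophage) and 9.91 (somatic together). Differences in UMIs per cell were 2290 (early spermatocyte), 8718 (early-to-pachytene), 3005 (late spermatid), 12708 (pachytene spermatocyte), 4146 (round spermatid) and 2234 (spermatogonia). In genes per cell they were 1083 (early spermatocyte), 1786 (early-to-pachytene), 648 (late spermatid), 59.1 (late spermatocyte), 1768 (pachytene spermatocyte), 966 (round spermatid) and 1068 (spermatogonia), where the late spermatocyte value only turned direction, and 14 (early spermatocyte) at 1000 UMIs. Differences in shares that turned direction in cells of at least 2000 UMIs were 0.398 (early spermatocyte), 4.19 (late spermatid) and -1.22 (late spermatocyte), and outside the low-UMI clusters -0.283 (late spermatocyte), -2.43 (pachytene spermatocyte) and 0.0496 (spermatogonia). The share of late spermatocytes among germ cells also turned direction with doublets kept, at -0.0216 (late spermatocyte), and at resolution 0.8, at -0.529 (late spermatocyte), where the difference in thinned genes per cell became 6.55 (late spermatocyte-to-round). Classes of the same name hold partly different cells at resolution 0.8. Log2 fold changes that turned direction were -0.258 for Brd3 in Clu-led Sertoli, 0.16 for Prm1 in late spermatid, 0.0239 for Herpud1 in late spermatid, -0.185 for Hsf2bp in low-UMI round spermatid, -0.403 for Ndufa1 in low-UMI round spermatid and 0.0524 for Aifm2 in low-UMI round spermatid with UC as control, -0.0309 for Brdt in early spermatocyte and 0.15 for Smarca5 in spermatogonia with at least 2000 UMIs, -0.0114 for Brd3 in Clu-led Sertoli with doublets kept, 0.0138 for Prm1 in late spermatid and 0.0291 for Gpx4 in late spermatid with matched cells, 0.0148 for Smarca5 in spermatogonia with no filter and -0.00794 for Brd3 in Clu-led Sertoli with the replicate block.

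Leaving out 1 library at a time, genes called ran from 0 to 67 (Aard-led Sertoli), 9 to 117 (Clu-led Sertoli), 0 to 221 (early spermatocyte), 3 to 210 (early-to-pachytene), 0 to 50 (late spermatid), 0 to 93 (late spermatocyte), 0 to 44 (late spermatocyte-to-round), 3 to 647 (low-UMI late spermatocyte-to-round), 58 to 1166 (low-UMI round spermatid), 0 to 3 (macrophage), 2 to 151 (round spermatid), 0 to 17 (spermatogonia) and 0 to 25 (unnamed cluster). Shares of germ cells differed by -1.57 to 2.25 (late spermatocyte), and outside the low-UMI clusters by -0.49 to 0.389 (early-to-pachytene), -0.769 to 1.31 (pachytene spermatocyte) and -1.17 to 0.0064 (spermatogonia). Genes per cell differed by -167 to 1.83 (late spermatocyte), and thinned by -3.58 to 1.4 (late spermatocyte-to-round). Log2 fold changes ran from -0.0954 to 0.451 for Brd3 in Clu-led Sertoli, -0.0919 to 0.122 for Brdt in early spermatocyte, -0.225 to 0.0834 for Herpud1 in late spermatid and -0.11 to 0.00329 for Smarca5 in spermatogonia. The cause of these changes was not tested, apart from fewer libraries, cells or genes by construction. VC-R held fewer cells and UMIs than R in most classes, which limits every comparison of rare classes.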

Other observations

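One cluster met no stage name because it held markers of late spermatids and of Sertoli cells together. It took 8.03, 7.82 and 5.43% of kept cells in R 1, R 2 and R 3, 9.65, 1.22 and 1.48% in VC-R 1, VC-R 2 and VC-R 3 and 2.02, 2.42 and 2.11% in UC, so that VC-R 1 lay with R. In its cells the 5 late spermatid markers summed to 15978, 16705 and 15841 CPM in R and 16661, 17636 and 17788 CPM in VC-R, and the 8 Sertoli markers to 963, 1012 and 877 CPM and 1032, 1388 and 1449 CPM, where each R library was below each VC-R library for the Sertoli markers. With edgeR 0 of 8137 genes were called in it (332 at an unadjusted p under 0.05), DESeq2 called 0, and without VC-R 1 edgeR called 25.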
